A study of Mus musculus with 6 samples.

Results

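The genes described here are the mouse matrix metalloproteases (Mmp), the secreted Adamts proteases, the Adamts-like proteins (Adamtsl) and the tissue inhibitors of metalloproteases (Timp). All protein-coding genes whose symbol begins with one of these family names were taken from the GENCODE M21 annotation: 22 Mmp, 19 Adamts, 5 Adamtsl and 4 Timp genes, or 50 of the 54532 genes in the deposited table. Mmp1a was left out because it is annotated as a polymorphic pseudogene, and it was listed at 0 in every library. The samples were whole testes of Ppp6r3 cKO mice (conditional knockout of Ppp6r3, a regulatory subunit of protein phosphatase 6; 3 libraries) and of wild-type mice (3 libraries), all on postnatal day 9. Which Cre drove the deletion, in which cells, which exons it removed and the strain of the mice are not stated in the labels. The labels also do not say whether each library is a separate animal, and the p-values therefore measure only the spread between these libraries, which may be technical.

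Matrix metalloproteases are zinc enzymes, made as inactive precursors, that cut collagens, laminins and other proteins outside the cell. Adamts enzymes carry thrombospondin repeats that bind them to the matrix and act on procollagens and large proteoglycans, while the Adamts-like proteins share those repeats but have no protease domain. Timps occupy the active site of the metalloproteases and block it, and in the testis both sides of this system act on the basement membrane of the seminiferous tubules and on the tissue between them.

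The libraries held 15970908 to 16606868 fragments, inferred from the deposited FPKM values, with 25841 to 26642 genes above 0. Ppp6r3 itself was at 15.8, 15.3 and 14.9 FPKM in the Ppp6r3 cKO libraries, against 20.8 to 21.3 FPKM in wild type. Counted over the whole gene in whole tissue, its log2 fold change was -0.45 (standard error 0.042, adjusted p = 0.000695 by limma). Library 1 of Ppp6r3 cKO departed from the mean of all libraries by a log2 difference of -0.111 in the genes of lowest GC content and 0.126 in those of highest GC content. The tested members had a median GC content of 54.0%, against 50.1% for all tested genes.

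In Ppp6r3 cKO testis 5 Mmp genes, among them the 3 most abundant, 4 Adamts genes and the most abundant inhibitor, Timp2, rose by 1.19-fold to 1.72-fold in mean FPKM, and no tested member fell. Of the 50 members, 37 had at least 10 fragments in at least 3 libraries and were tested. Of these, 10 rose in Ppp6r3 cKO testis at an adjusted p under 0.05 (limma on log2(FPKM + 0.1), adjusted over all 17658 genes tested). That is 27.0% of the tested members, where 7.67% of all tested genes rose. No tested member fell by that test, where 7.86% of all tested genes fell. None was lower at an unadjusted p under 0.05 or by voom either, where 2754 and 2150 of the 17658 genes were lower. The 10 were Mmp2, Mmp11, Mmp14, Mmp15 and Mmp28, Adamts1, Adamts2, Adamts5 and Adamts14, and Timp2. The log2 fold change was positive in 30 tested members and negative in 7, with a median of 0.17, against a median of 0.0027 over all tested genes. The sign turned under at least 1 alternative in 10 tested members, none of them among those that rose. In 16 tested members all 3 Ppp6r3 cKO libraries lay above all 3 wild-type libraries, and in 0 they all lay below, where 18.8% of all tested genes lay wholly above and 18.2% wholly below. Voom on the recovered fragments called 16 members higher, where it called 11.0% of all tested genes higher. In whole tissue, a change in the number of cells that make an RNA and a change in the RNA per cell cannot be told apart.

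**Figure D1:**
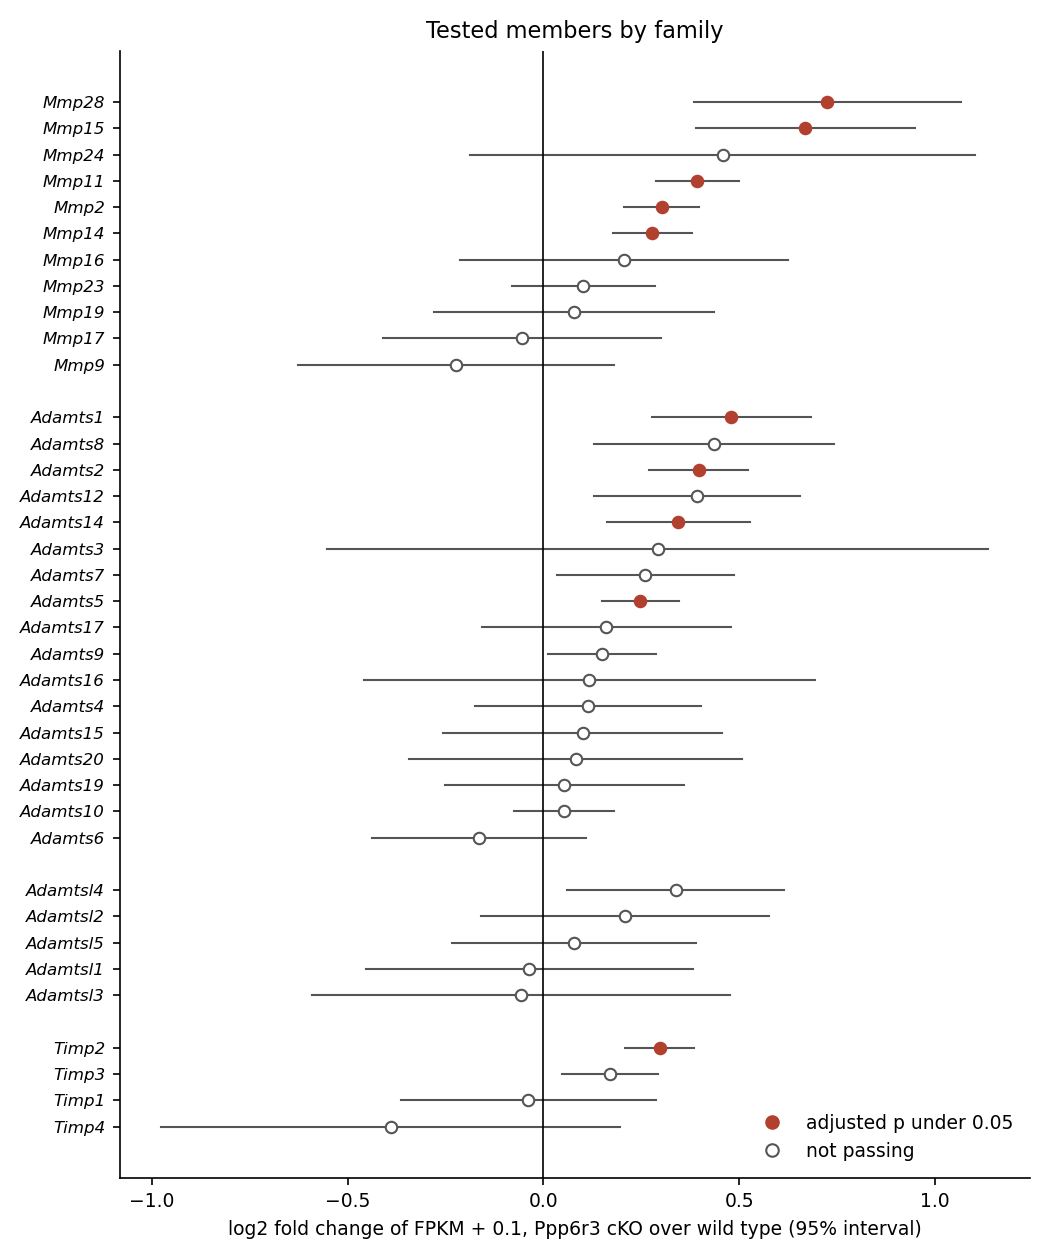
Log2 fold change (Ppp6r3 cKO over wild type, on the log2(FPKM + 0.1) scale) of each of the 37 tested members, with 95% intervals from limma, not adjusted; filled points have an adjusted p under 0.05. Each of the 10 members that passed lies to the right of 0, between 0.25 for Adamts5 and 0.72 for Mmp28.

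The Mmp family had a few abundant members and many near 0. Mmp2, Mmp11 and Mmp14 together held 84.8% ± 0.701 of the summed Mmp FPKM in Ppp6r3 cKO and 83.6% ± 0.601 in wild type (SD, n = 3 each). The summed Mmp level was 136.3 ± 4.91 FPKM in Ppp6r3 cKO and 110.4 ± 1.94 FPKM in wild type. Of the 11 tested Mmp genes, 5 rose and 6 did not pass. The share that rose was 45.5%, against 7.67% of all tested genes.

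Mmp2 (chr8:92827291-92853420, GRCm38, plus strand) encodes gelatinase A, which cuts denatured collagen and the type IV collagen of basement membranes. It was at 41.4, 39.5 and 40.0 FPKM in Ppp6r3 cKO, against 31.8, 33.9 and 32.3 FPKM in wild type. The groups did not overlap, and the log2 fold change was 0.30 (SE 0.0415, adjusted p = 0.00358). Mmp9, the other gelatinase (gelatinase B), averaged 1.10 ± 0.129 FPKM in Ppp6r3 cKO and 1.31 ± 0.279 FPKM in wild type, with overlapping groups and an adjusted p of 0.43.

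Mmp14 (chr14:54431612-54445364, plus strand) encodes MT1-MMP, an enzyme held in the plasma membrane that cuts fibrillar collagen and activates the Mmp2 precursor together with Timp2. It was at 39.2, 36.2 and 37.6 FPKM in Ppp6r3 cKO, against 31.9, 30.9 and 30.2 FPKM in wild type. Every Ppp6r3 cKO library lay above every wild-type library, with a log2 fold change of 0.28 (SE 0.0443, adjusted p = 0.00606). Mmp15 (chr8:95352268-95375080, plus strand), a second enzyme with a transmembrane anchor, was at 3.06, 2.43 and 2.46 FPKM in Ppp6r3 cKO, against 1.54, 1.73 and 1.60 FPKM in wild type. Its groups were also apart, with library 1 the highest of the Ppp6r3 cKO libraries, and the log2 fold change was 0.67 (SE 0.122, adjusted p = 0.0103). The remaining 2 of the 4 members placed in this group, Mmp16 and Mmp24, did not pass. Mmp23, anchored by its amino-terminal end, was not counted in this group. It is given below and did not pass either. Mmp16 averaged 0.479 ± 0.0834 FPKM in Ppp6r3 cKO and 0.399 ± 0.0311 FPKM in wild type (log2 fold change 0.21, 95% interval -0.21 to 0.62). Mmp24 averaged 0.268 ± 0.0906 FPKM in Ppp6r3 cKO and 0.171 ± 0.0841 FPKM in wild type, with a wide interval of -0.19 to 1.10. Of the enzymes anchored by a glycolipid, Mmp17 averaged 1.47 ± 0.149 FPKM in Ppp6r3 cKO and 1.54 ± 0.279 FPKM in wild type (log2 fold change -0.06, adjusted p = 0.842), and Mmp25, with 1 to 7 fragments per library, was not tested.

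Mmp11 (chr10:75923222-75936496, minus strand) encodes stromelysin-3, which is activated inside the cell by furin and is made by stromal cells. It was at 38.6, 36.7 and 37.9 FPKM in Ppp6r3 cKO, against 30.2, 28.3 and 27.6 FPKM in wild type. The lowest Ppp6r3 cKO library was above the highest wild-type library, and the log2 fold change was 0.39 (SE 0.0459, adjusted p = 0.00176). Mmp11 shares 155 exon bases (5.58% of its exons) with Chchd10 on the opposite strand, which had a log2 fold change of -0.12 (BH-adjusted p = 0.361). Mmp28 (chr11:83440768-83463071, minus strand) encodes epilysin, a secreted enzyme known from testis and skin. It was at 1.89, 1.79 and 1.47 FPKM in Ppp6r3 cKO, against 0.870, 1.04 and 1.08 FPKM in wild type. The groups stood apart, and the log2 fold change of 0.72 (SE 0.148, adjusted p = 0.0157) was close to that of Mmp15. With a pseudocount of 1 it was 0.44, against 0.47 for Mmp15, and without Ppp6r3 cKO library 2 it was 0.69, against 0.72 for Mmp15. The adjusted p was 0.0505 without wild-type library 1 and 0.0517 without Ppp6r3 cKO library 2, and 0.0571 at most over the 14 alternatives tried. Mmp28 shares 466 exon bases (12.0%) with 1700020L24Rik on the opposite strand, whose log2 fold change was 0.52 (adjusted p = 0.221). Whether counting used the strand is not given in the sources used here, and reads from such overlaps may have gone to either gene.

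Mmp23, an enzyme anchored by its amino-terminal end, averaged 11.1 ± 1.18 FPKM in Ppp6r3 cKO and 10.3 ± 0.551 FPKM in wild type (adjusted p = 0.427). Mmp19 averaged 1.57 ± 0.207 FPKM in Ppp6r3 cKO and 1.49 ± 0.235 FPKM in wild type (adjusted p = 0.773). Both had overlapping groups. Mmp21 had 2 to 7 fragments per library and was not tested.

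**Figure D2:**
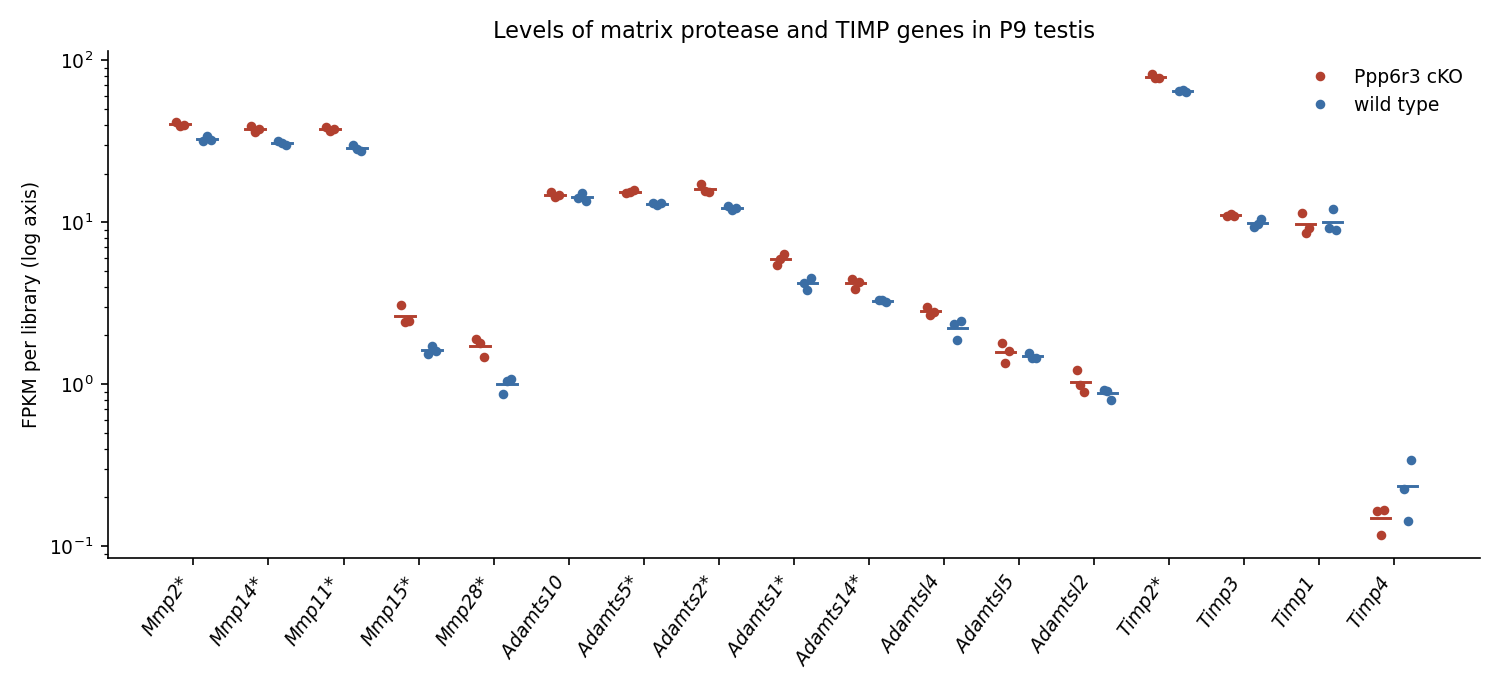
FPKM on a log axis of the 17 members given in every library, by family, with a point for each library, a line at the mean and Ppp6r3 cKO to the left of wild type. An asterisk marks an adjusted p under 0.05; in each of these 10 genes the Ppp6r3 cKO points lie above all the wild-type points.

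The other Mmp genes form a cluster on chromosome 9 (positions 7272514 to 7699585) that holds the collagenases Mmp8 and Mmp13, the stromelysins Mmp3 and Mmp10, matrilysin (Mmp7), the macrophage elastase Mmp12, the enamel protease Mmp20, Mmp1b and Mmp27. None of its 9 genes was tested. Together they had 15 fragments in the 3 Ppp6r3 cKO libraries and 18 in the 3 wild-type libraries, with at most 6 in any gene and library. Mmp13 had 1 fragment in Ppp6r3 cKO and 8 in wild type, and Mmp7 had 6 in Ppp6r3 cKO and 0 in wild type. Mmp3, Mmp20 and Mmp1b had 0 in every library; a count of 0 allows a level of up to 0.104 FPKM for Mmp3 and of up to 0.0571 FPKM for Mmp20 (3 fragments, counting error only). With so few fragments, differences within this cluster were not tested.

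The promoters of the cluster and of the members that rose differed in their letters. The sequences printed here, from RefSeq on GRCm38.p6, are the 250 bases before the annotated start, read 5′ to 3′ along the gene, of 3 members that rose and 3 members of the cluster. Capitals mark the GC box GGGCGG, the TATA box TATAAA and the AP-1 motif TGANTCA, searched on both strands, so that a GC box on the other strand reads CCGCCC.
Mmp14, chr14:54431348-54431597, plus strand: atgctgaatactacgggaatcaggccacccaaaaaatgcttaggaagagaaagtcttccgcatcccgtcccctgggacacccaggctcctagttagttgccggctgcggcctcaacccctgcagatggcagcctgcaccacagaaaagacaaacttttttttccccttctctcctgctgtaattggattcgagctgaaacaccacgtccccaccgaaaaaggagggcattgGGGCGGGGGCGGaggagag
Adamts1, chr16:85803114-85803363, minus strand: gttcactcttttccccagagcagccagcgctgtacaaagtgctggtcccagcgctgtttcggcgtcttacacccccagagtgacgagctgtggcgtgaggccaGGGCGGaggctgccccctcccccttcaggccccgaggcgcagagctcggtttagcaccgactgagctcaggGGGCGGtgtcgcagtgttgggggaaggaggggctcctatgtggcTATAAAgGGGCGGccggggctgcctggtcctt
Adamts2, chr11:50601835-50602084, plus strand: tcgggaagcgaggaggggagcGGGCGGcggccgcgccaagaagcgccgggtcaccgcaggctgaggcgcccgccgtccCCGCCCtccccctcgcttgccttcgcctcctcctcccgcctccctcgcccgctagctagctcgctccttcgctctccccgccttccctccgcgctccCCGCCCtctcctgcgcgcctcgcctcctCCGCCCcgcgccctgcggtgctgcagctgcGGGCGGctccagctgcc
Mmp3, chr9:7445572-7445821, plus strand: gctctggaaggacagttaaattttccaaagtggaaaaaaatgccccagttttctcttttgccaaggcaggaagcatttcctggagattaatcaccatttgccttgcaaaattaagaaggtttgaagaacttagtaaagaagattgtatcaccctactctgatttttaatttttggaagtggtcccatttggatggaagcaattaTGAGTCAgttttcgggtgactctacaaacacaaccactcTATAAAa
Mmp10, chr9:7502092-7502341, plus strand: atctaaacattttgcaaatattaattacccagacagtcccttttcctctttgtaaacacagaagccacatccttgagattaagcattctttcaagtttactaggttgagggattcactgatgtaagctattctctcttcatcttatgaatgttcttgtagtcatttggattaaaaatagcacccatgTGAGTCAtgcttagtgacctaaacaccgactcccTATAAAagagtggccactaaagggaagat
Mmp13, chr9:7272264-7272513, plus strand: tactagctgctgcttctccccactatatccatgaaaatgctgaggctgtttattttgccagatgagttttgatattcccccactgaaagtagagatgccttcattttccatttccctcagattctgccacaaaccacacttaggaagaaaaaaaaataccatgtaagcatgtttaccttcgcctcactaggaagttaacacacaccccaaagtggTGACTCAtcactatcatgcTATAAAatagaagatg
Mmp14, Adamts1 and Adamts2 hold 2, 3 and 5 GC boxes, and Adamts1 also holds a TATA box. Mmp3, Mmp10 and Mmp13 each hold a TATA box and an AP-1 motif and no GC box. Not all of the cluster is alike, since the promoters of Mmp8, Mmp12 and Mmp27 hold none of these motifs.

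A promoter was listed for 35 of the 50 members. In 31 of these a stretch of bases after the start was found in the GENCODE transcripts of the same gene. That checks the orientation of the sequence and not the position of the start. A GC box was found in 8 of the 8 listed promoters of members that rose, in 10 of the 14 of tested members that did not pass, in 2 of 4 of the other untested members and in 0 of 9 in the cluster. Over 32851 mouse promoters, 32.7% held one. The AP-1 motif was in 6 of the 9 cluster promoters and in 0 of the other members' listed promoters, where 6.75% of all promoters held it. Members without a listed promoter were not searched. The TATA box was in 6 of 9 in the cluster and in 1 of 8 among members that rose (12.4% of all promoters). The median GC content of these windows was 64.6% in the members that rose, 65.0% in tested members that did not pass and 40.0% in the cluster, against 52.4% over all promoters. The members that rose and those that were tested and did not pass thus had similar GC content here. These matches describe letters in a window and show no binding.

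**Figure D3:**
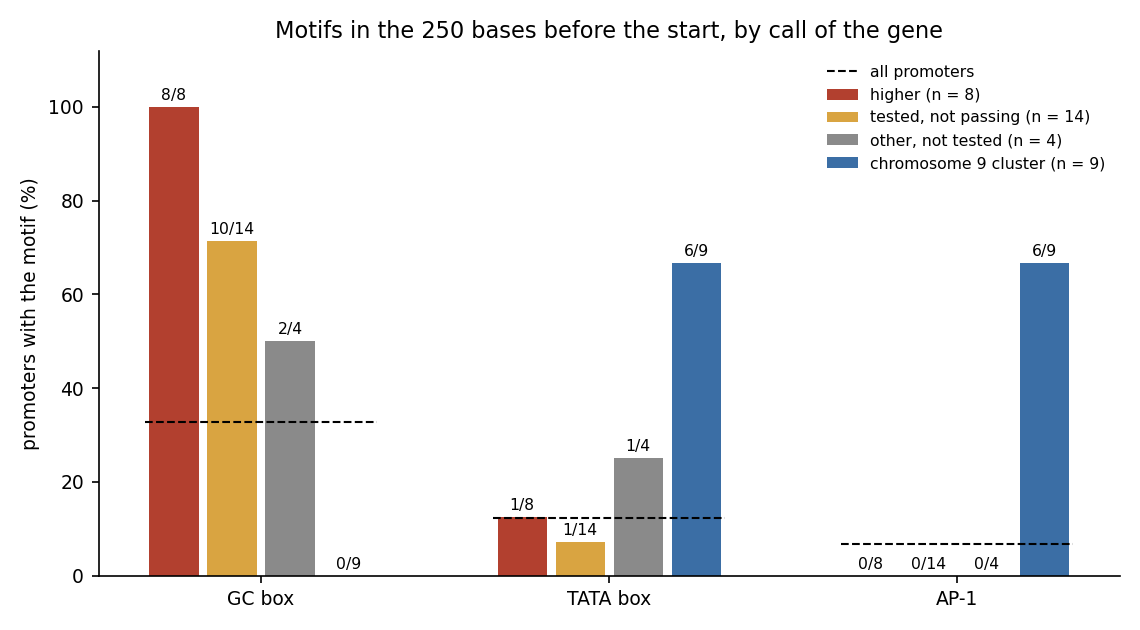
Share of listed promoters (%) that hold a GC box, a TATA box or an AP-1 motif in the 250 bases before the start, as bars for members that rose, tested members that did not pass, other untested members and the chromosome 9 cluster. Dashed lines are the share over all promoters. The cluster has 0 of 9 with a GC box and 6 of 9 with AP-1, which no other listed promoter holds. Members without a listed promoter were not searched.

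In the Adamts family, 17 of 19 genes were tested, of which 4 rose and 13 did not pass. The share that rose was 23.5%, against 7.67% of all tested genes. The summed Adamts level was 79.0 ± 0.922 FPKM in Ppp6r3 cKO and 66.6 ± 0.32 FPKM in wild type (SD, n = 3 each). In 8 of the 17 all Ppp6r3 cKO libraries lay above all wild-type libraries, where 18.8% of all tested genes did so.

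The procollagen N-proteinases Adamts2, Adamts3 and Adamts14 remove the amino-terminal propeptides of fibrillar procollagens. Adamts2 (chr11:50602084-50807573, plus strand) was at 17.3, 15.7 and 15.5 FPKM in Ppp6r3 cKO, against 12.6, 11.9 and 12.2 FPKM in wild type. Its groups were far apart relative to their spread, with a log2 fold change of 0.40 (SE 0.0554, adjusted p = 0.00385). Adamts14 (chr10:61197112-61273438, minus strand) was at 4.46, 3.86 and 4.29 FPKM in Ppp6r3 cKO, against 3.33, 3.33 and 3.20 FPKM in wild type. The groups did not overlap, but the log2 fold change of 0.34 (SE 0.0798, adjusted p = 0.0247) passed in only 5 of 14 alternatives, with an adjusted p of up to 0.133. With 1 library left out, Adamts14 passed only without Ppp6r3 cKO library 2 (adjusted p = 0.0277), and without any other library the adjusted p was 0.0614 to 0.0817. Adamts3 averaged 0.421 ± 0.0799 FPKM in Ppp6r3 cKO and 0.362 ± 0.222 FPKM in wild type, and the wild-type libraries alone ran from 0.133 to 0.577 FPKM. The ratio of Adamts2 to Adamts14 was 3.85 ± 0.231 in Ppp6r3 cKO and 3.73 ± 0.126 in wild type.

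Of the 7 members that cut aggrecan, versican and related proteoglycans, all tested, 2 rose, where 7.67% of all tested genes rose. Adamts5 (chr16:85856173-85901828, minus strand), a main aggrecanase of cartilage, was at 15.1, 15.3 and 15.8 FPKM in Ppp6r3 cKO, against 13.1, 12.7 and 13.1 FPKM in wild type. The 3 libraries of each group lay close together and the groups were apart, with a log2 fold change of 0.25 (SE 0.0429, adjusted p = 0.00865). Adamts1 (chr16:85793827-85803113, minus strand), a versican-cleaving enzyme known from the ovary and from vessel walls, was at 5.42, 5.94 and 6.37 FPKM in Ppp6r3 cKO, against 4.22, 3.84 and 4.56 FPKM in wild type. The groups did not overlap, and the log2 fold change was 0.48 (SE 0.0881, adjusted p = 0.0106). The genes Adamts1 and Adamts5 lie 53059 bases apart on chromosome 16 and were the only members of this group that passed.

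The other 5 proteoglycan-cleaving members did not pass. Adamts9 averaged 5.82 ± 0.252 FPKM in Ppp6r3 cKO and 5.24 ± 0.0919 FPKM in wild type (log2 fold change 0.15, adjusted p = 0.132), and Adamts8 averaged 2.30 ± 0.309 FPKM in Ppp6r3 cKO and 1.67 ± 0.159 FPKM in wild type (0.44, adjusted p = 0.0633). In both, all Ppp6r3 cKO libraries lay above all wild-type libraries, and voom called both. Adamts4, the other main aggrecanase, averaged 1.35 ± 0.0819 FPKM in Ppp6r3 cKO and 1.24 ± 0.0941 FPKM in wild type (adjusted p = 0.586). Adamts15 averaged 0.821 ± 0.0841 FPKM in Ppp6r3 cKO and 0.759 ± 0.0656 FPKM in wild type, and Adamts20 averaged 0.300 ± 0.0403 FPKM in Ppp6r3 cKO and 0.278 ± 0.0379 FPKM in wild type. Adamts8 and Adamts15 are neighbours on chromosome 9, 20109 bases apart.

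Adamts7 and Adamts12, which cut cartilage oligomeric matrix protein, had log2 fold changes of 0.26 (adjusted p = 0.114) and 0.39 (adjusted p = 0.0535). Adamts12 averaged 1.79 ± 0.0458 FPKM in Ppp6r3 cKO and 1.34 ± 0.101 FPKM in wild type and its groups did not overlap, while Adamts7 averaged 5.23 ± 0.388 FPKM in Ppp6r3 cKO and 4.36 ± 0.503 FPKM in wild type, with overlap. Voom called both.

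Among the remaining Adamts genes, the most abundant was Adamts10, which is known for its role in fibrillin microfibrils. It was at 15.4, 14.3 and 14.8 FPKM in Ppp6r3 cKO, against 14.1, 15.2 and 13.6 FPKM in wild type. The groups overlapped, with a log2 fold change of 0.05 (95% interval -0.08 to 0.18, adjusted p = 0.57), although its level was close to that of Adamts2 and Adamts5. The other 4 tested genes had adjusted p-values of 0.386 for Adamts6, 0.473 for Adamts17, 0.793 for Adamts16 and 0.822 for Adamts19. Adamts6 had a log2 fold change of -0.17, at 1.46 ± 0.113 FPKM in Ppp6r3 cKO and 1.65 ± 0.105 FPKM in wild type. Adamts13, the liver enzyme that cuts von Willebrand factor, and Adamts18 had at most 7 and 9 fragments in any library and were not tested.

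None of the 5 Adamts-like genes passed, where 7.67% of all tested genes rose. At an unadjusted limma p under 0.05 and by voom, 1 of them, Adamtsl4, was higher. Of the 17658 genes tested, 2787 were higher at that unadjusted p and 1946 by voom. Adamtsl4, which binds fibrillin-1, was at 2.98, 2.67 and 2.80 FPKM in Ppp6r3 cKO, against 2.35, 1.87 and 2.45 FPKM in wild type. Its groups did not overlap, with a log2 fold change of 0.34 (SE 0.12, adjusted p = 0.0972). Adamtsl5 was at 1.81, 1.35 and 1.60 FPKM in Ppp6r3 cKO, against 1.57, 1.46 and 1.45 FPKM in wild type. Adamtsl2, known from human geleophysic dysplasia as a regulator of microfibrils, was at 1.22, 0.994 and 0.892 FPKM in Ppp6r3 cKO, against 0.919, 0.912 and 0.799 FPKM in wild type. In both the groups overlapped, with adjusted p-values of 0.741 for Adamtsl5 and 0.417 for Adamtsl2. Adamtsl1 and Adamtsl3 had log2 fold changes of -0.04 and -0.06, with adjusted p-values of 0.916 and 0.894.

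The inhibitors were led by Timp2, which held 79.1% ± 0.537 of the summed Timp FPKM in Ppp6r3 cKO and 76.2% ± 1.24 in wild type (SD, n = 3 each). Timp2 (chr11:118301069-118355740, minus strand) blocks Mmp2 and, bound to Mmp14, takes part in its activation. It was at 82.6, 77.8 and 77.9 FPKM in Ppp6r3 cKO, against 64.4, 65.6 and 63.9 FPKM in wild type. The groups were well apart, and the log2 fold change was 0.30 (SE 0.0384, adjusted p = 0.00285). Timp3, which is bound to the matrix and also inhibits Adamts4 and Adamts5, was at 11.0, 11.3 and 11.0 FPKM in Ppp6r3 cKO, against 9.38, 9.78 and 10.4 FPKM in wild type. Its groups did not overlap, but with a log2 fold change of 0.17 (SE 0.0535) the adjusted p was 0.069, and voom called it. Timp1, a secreted inhibitor with a broad range, was at 11.5, 8.60 and 9.28 FPKM in Ppp6r3 cKO, against 9.22, 12.0 and 8.95 FPKM in wild type. One library in each group stood above the other two, and the log2 fold change was -0.04 (95% interval -0.36 to 0.29, adjusted p = 0.882). Timp4 was the least abundant, at 0.166, 0.117 and 0.168 FPKM in Ppp6r3 cKO, against 0.225, 0.143 and 0.340 FPKM in wild type. Its groups overlapped (log2 fold change -0.39, adjusted p = 0.341).

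The levels of Mmp2 and Mmp14 relative to Timp2 overlapped between the genotypes. The ratio of Mmp2 to Timp2 was 0.501, 0.507 and 0.513 in Ppp6r3 cKO, against 0.493, 0.517 and 0.506 in wild type. The ratio of Mmp14 to Timp2 averaged 0.474 ± 0.00834 in Ppp6r3 cKO and 0.480 ± 0.0138 in wild type. The summed Mmp level over the summed Timp level was 1.36 ± 0.0148 in Ppp6r3 cKO and 1.30 ± 0.0441 in wild type, with overlapping groups. These are ratios of FPKM and say nothing of protein or activity.

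The enzymes that activate Mmps and the other proteins that inhibit or clear them were examined as well. For comparison, 7.67% of all tested genes rose and 7.86% fell. At an unadjusted p under 0.05, 2787 of the 17658 genes were higher and 2754 lower, and by voom 1946 and 2150. Of 7 tested activation genes (Furin, Pcsk5, Pcsk6, Plau, Plat, Plaur and Bsg), 1 rose and 0 fell, with a median log2 fold change of 0.03; at an unadjusted p under 0.05, 2 were higher and 1 lower, as by voom. Furin, the proprotein convertase that activates Mmp11 and Mmp14, averaged 21.3 ± 1.5 FPKM in Ppp6r3 cKO and 16.9 ± 0.442 FPKM in wild type, with a log2 fold change of 0.32 (BH-adjusted p = 0.0089). Of 9 tested genes of other inhibitors and clearance receptors, 3 rose and 0 fell (median 0.18), and 0 were lower at an unadjusted p under 0.05 or by voom. They were Serpine2, an inhibitor of plasminogen activators (0.34, adjusted p = 0.00163), Lrp1, an endocytic receptor for Mmp and Adamts enzymes (0.37, adjusted p = 0.0091), and Papln, which encodes papilin (0.42, adjusted p = 0.0328). Papln failed to pass in 9 of 14 alternatives, with an adjusted p of up to 0.128. Of 10 tested genes of the related Adam, tolloid and meprin families, 0 changed at an adjusted or an unadjusted p under 0.05, and 0 by voom. Among them Adam17, which sheds membrane proteins, had the smallest p (log2 fold change -0.09, adjusted p = 0.189).

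Of 25 substrates and partners, all tested, 15 rose and 0 fell, where 7.67% of all tested genes rose and 7.86% fell. Their median log2 fold change was 0.29. At an unadjusted p under 0.05, and by voom, 1 was lower, where 2754 and 2150 of the 17658 genes tested were lower. Col4a1 and Col4a2, the main type IV collagen chains of basement membranes, averaged 73.6 ± 2.39 and 61.2 ± 2.07 FPKM in Ppp6r3 cKO, against 47.7 ± 0.972 and 42.3 ± 1.29 FPKM in wild type (log2 fold changes 0.62 and 0.53, adjusted p = 0.000139 and 0.000381). Hspg2, which encodes perlecan, had a log2 fold change of 0.51 (BH-adjusted p = 0.00262). Vwf, the endothelial substrate of Adamts13, had a log2 fold change of 0.87 (BH-adjusted p = 0.0108), or 0.44 with a pseudocount of 1. The list holds 4 proteoglycans that Adamts enzymes cut (versican, aggrecan, brevican and neurocan), of which 1 rose. Bcan (brevican), the most abundant of them, was at 32.1, 32.6 and 28.0 FPKM in Ppp6r3 cKO, against 25.9, 25.5 and 24.2 FPKM in wild type. Its groups did not overlap (log2 fold change 0.29, SE 0.0631, adjusted p = 0.0194), but the adjusted p was 0.0608 and 0.0744 without wild-type library 2 or 3, 0.0583 without Ppp6r3 cKO library 2 and 0.0602 without the low-value filter. The other 3 did not pass. Vcan averaged 0.991 ± 0.0814 FPKM in Ppp6r3 cKO and 0.840 ± 0.0786 FPKM in wild type, and Acan 0.985 ± 0.024 FPKM in Ppp6r3 cKO and 1.05 ± 0.0745 FPKM in wild type. Ncan averaged 0.292 ± 0.0839 FPKM in Ppp6r3 cKO and 0.299 ± 0.0567 FPKM in wild type. Collagen and other matrix genes appear among the stromal markers too, so the lists are not independent.

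**Figure D4:**
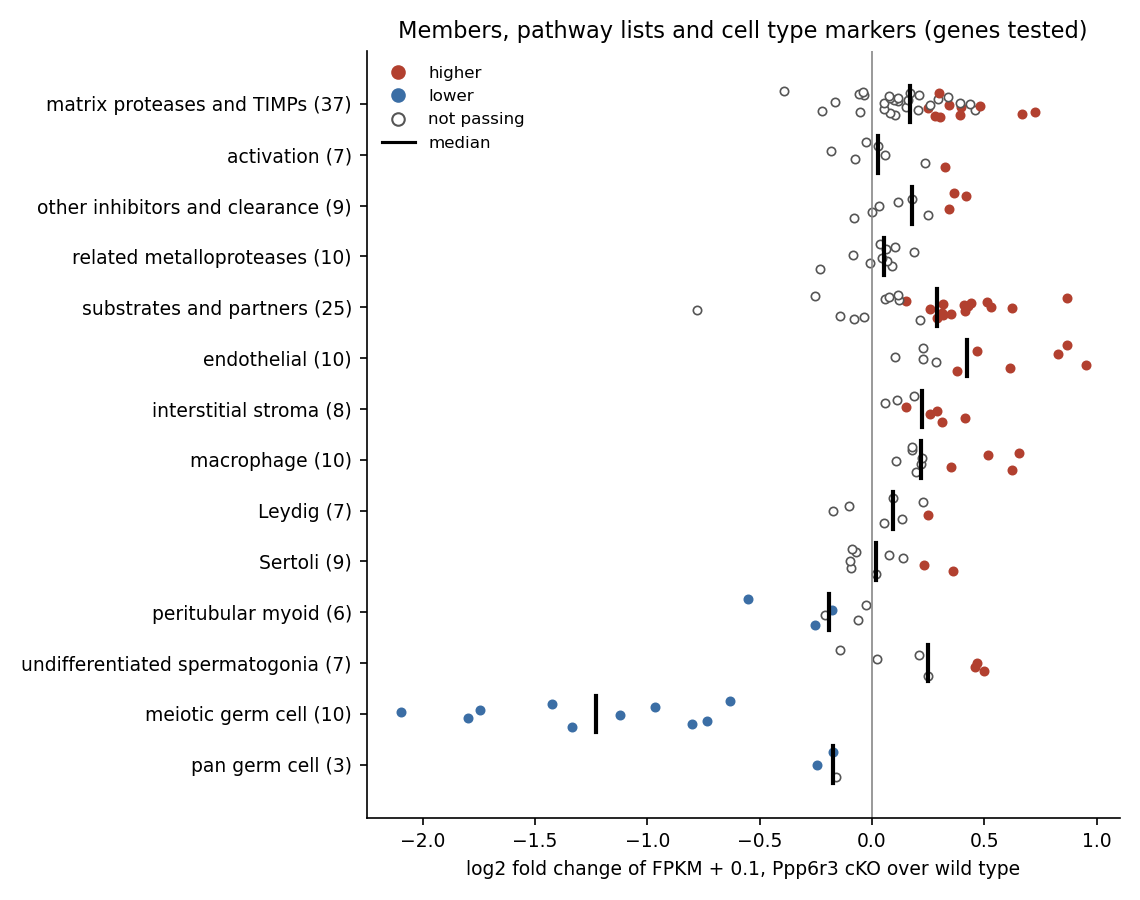
Log2 fold change (Ppp6r3 cKO over wild type) of every tested gene in the matrix protease and Timp set, the 4 pathway lists and the 9 cell-type marker lists, with the median of each list as a line; filled points passed the test. The median runs from -1.23 for the meiotic markers to 0.42 for the endothelial markers.

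Markers of several cell types moved in the same libraries. Over all tested genes, 7.67% rose and 7.86% fell. Of 10 endothelial markers 6 rose and 0 fell, with a summed level of 68.3 to 74.0 FPKM in Ppp6r3 cKO and 46.0 to 50.6 FPKM in wild type (Tie1, log2 fold change 0.95). Of 8 markers of the interstitial stroma 5 rose and 0 fell, with sums of 579 to 602 FPKM in Ppp6r3 cKO and 486 to 495 FPKM in wild type. Of 10 macrophage markers 4 rose and 0 fell, with sums of 160 to 173 FPKM in Ppp6r3 cKO and 121 to 127 FPKM in wild type (Lyz2, 0.65). In each of these 3 cell types the sum was higher in every Ppp6r3 cKO library than in every wild-type library. The same held for the Leydig cell and undifferentiated spermatogonial markers given next.

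The markers of the other cell types did not all move that way (over all tested genes, 7.67% rose and 7.86% fell). All 10 meiotic markers fell, with sums of 121 to 130 FPKM in Ppp6r3 cKO and 275 to 279 FPKM in wild type (median log2 fold change -1.23). Undifferentiated spermatogonial markers rose in 3 of 7 and fell in 0, with sums of 45.6 to 50.5 FPKM in Ppp6r3 cKO and 35.3 to 39.0 FPKM in wild type. Of 3 pan-germ-cell markers 2, Dazl and Mael, fell (adjusted p of up to 0.14 for Dazl and 0.124 for Mael with a wild-type library left out), with sums of 239 to 272 FPKM in Ppp6r3 cKO and 289 to 307 FPKM in wild type. Peritubular myoid markers fell in 3 of 6 and rose in 0 (508 to 536 FPKM in Ppp6r3 cKO, 603 to 629 FPKM in wild type). Sertoli cell markers rose in 2 of 9 and fell in 0, with overlapping sums of 1765 to 1929 FPKM in Ppp6r3 cKO and 1878 to 1926 FPKM in wild type. Leydig cell markers rose in 1 of 7 and fell in 0, with sums of 249 to 252 FPKM in Ppp6r3 cKO and 225 to 236 FPKM in wild type. The counts of 0 in these marker lists also held at an unadjusted p under 0.05 and by voom, except that 1 Leydig and 1 Sertoli marker were then lower at the unadjusted p, and 1 Leydig and 3 Sertoli markers by voom. Of the 17658 genes tested, 2787 were higher and 2754 lower at the unadjusted p, and 1946 and 2150 by voom. No marker of any list was at 0 in all libraries. The part of these shifts in the levels of the proteases and Timps was not tested.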

How the data were processed

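RNA of whole testis from 3 Ppp6r3 cKO and 3 wild-type samples on postnatal day 9 was compared. Per the labels' protocols, RNA was isolated with Trizol and KAPA stranded mRNA libraries were made; per the series' design text, reads were aligned to mm10 with HISAT2 2.0.5. DESeq2 appears in the submitters' processing notes. The counting tool, its strand setting and the annotation release are not given in the sources used here.

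The values the authors deposited are FPKM, although the table is labelled as counts. Multiplied by GENCODE M21 exon lengths, 31625 of 32589 genes above 0 (97.0%) were whole multiples of 1 step per library within 0.01. These multiples were taken as the fragments. The other 964, among them Adamts10 and Adamts19, were given the smallest whole counts that kept the ratios between libraries. Those counts may be too low by a common factor, and they enter the low-value filter and voom. Any of the 964 seen in only 1 library was set to 1 fragment without a check.

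A minimum of 10 recovered fragments in 3 or more libraries was set, and the genes that met it were compared on log2(FPKM + 0.1) with limma 3.58.1 in R 4.3.3 (trend, robust, 2-sided; Benjamini-Hochberg over 17658 genes, threshold 0.05). This scale understates changes of low genes. The script was tested on simulated data. Values were given in every library for members that passed, the Timp genes and the 3 most abundant members of each other family; from the pathway and marker lists, passing genes with the largest changes were named, and Bcan, Vcan, Acan and Ncan were chosen after their values were seen. Members, lists and roles were chosen with earlier results of these data known. Alternatives were voom, other pseudocounts, no low-value filter, median-ratio scaling, a replicate block, a GC and length correction, and leaving out each library. Promoters were RefSeq sequences of GRCm38.p6.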

Additional observations from a re-analysis of the deposited data

How the results depend on the processing

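Of the 10 members that rose, 8 passed in all 14 alternatives. Mmp28 was lost with the GC and length correction combined with the replicate block, without wild type replicate 1 and without Ppp6r3 cKO replicate 2 (adjusted p of up to 0.0571). Adamts14 was lost in 9 alternatives, among them no low-value filter and the GC and length correction. The number of members that rose was 8 to 10 when 1 library was left out and 16 with voom, which added Adamts7, Adamts8, Adamts9, Adamts12, Adamtsl4 and Timp3: 8 Adamts, 1 Adamtsl and 2 Timp genes then rose. Adamts12 also passed with a pseudocount of 1 and with the GC and length correction, and Adamts8 without Ppp6r3 cKO replicate 1. Over all genes, 1355 rose and 1388 fell; 740 rose and 768 fell without the low-value filter, 2150 fell with voom, and leaving out 1 library gave 600 to 1120 that rose and 642 to 1276 that fell. Without wild type replicate 1, 2 and 3, 817, 600 and 648 genes rose and 808, 642 and 684 fell, and without Ppp6r3 cKO replicate 2, 899 rose. With the GC and length correction the median log2 fold change of the tested members was 0.12, against 0.17, and 10 members rose; with a pseudocount of 1 the median was 0.09. Among the 37 tested members the sign turned under at least 1 alternative in 10, and 0 of these passed. With the GC and length correction, with or without the block, it turned in Adamts10 (-0.0527), Adamtsl5 (-0.0238), the Adamtsl median (-0.0238) and Timp1 (0.0171). When 1 library was left out, Adamtsl5 ran from -0.0158 (without Ppp6r3 cKO replicate 1) to 0.182, and Timp1 from -0.158 to 0.0946 (without wild type replicate 2); Timp1 was also positive when Ppp6r3 cKO replicate 2 was left out (0.0486). Leaving out 1 library also turned Mmp19 (-0.0432 to 0.171), Mmp17 (-0.135 to 0.0800), Adamts3 (-0.137 to 0.632), Adamts16 (-0.0428 to 0.294), Adamts19 (-0.0481 to 0.152), Adamtsl1 (-0.172 to 0.0497) and Adamtsl3 (-0.209 to 0.113), and, outside the families, Ncan (-0.201 to 0.0831). The causes were not tested.

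Samples share only a replicate number: same-numbered libraries had correlations of their deviations of 0.014, -0.0045 and -0.0073. With the replicate block 9 members rose, and 1094 genes rose and 1103 fell over all genes. Genes with few fragments, such as the chromosome 9 Mmp cluster, could not be tested at this depth.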

Other observations

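Several Timp genes lie within synapsin genes, in the opposite orientation, and the synapsin genes had their own values. Timp1, Timp3 and Timp4 are inside Syn1, Syn3 and Syn2. Syn2 averaged 1.02 ± 0.0856 FPKM in Ppp6r3 cKO and 1.84 ± 0.188 FPKM in wild type (SD, n = 3 each), a log2 fold change of -0.79 (limma adjusted p = 0.00764). Syn1 averaged 0.487 ± 0.028 FPKM in Ppp6r3 cKO and 0.764 ± 0.0225 FPKM in wild type, a log2 fold change of -0.56 (adjusted p = 0.0412). Both fell, while Timp1 and Timp4 inside them did not pass the test. Syn3 averaged 0.164 FPKM in Ppp6r3 cKO and 0.175 FPKM in wild type (adjusted p = 0.925). Timp4 shares 90 exon bases (1.53% of its exons) with Syn2, Timp3 shares 1733 (21.3%) with Syn3 and Timp1 shares 0 with Syn1. The 3 synapsin genes were looked at after their values were seen, because of where they lie. Of all 50 members, 13 share exon bases with another gene, and 2 of these, Mmp11 and Mmp28, rose. The 13 include Mmp7, Mmp12 and Mmp1b, which were not tested. For comparison, 27.0% of the tested members and 7.67% of all tested genes rose.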
